A study of Rattus norvegicus with 8 samples.

Results

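Enteroendocrine cells are the hormone-secreting cells of the gut epithelium, and the genes described here are the transcription factors that build them and the enzyme with which the most numerous of them start serotonin. The group was listed as 9 gene symbols, and 8 of them matched 1 locus each by exact symbol among 52753 loci of the deposited table. These were Neurog3, Neurod1, Pax4, Pax6, Isl1, Rfx6, Nkx2-2 and Tph1. Insm1 matched no locus by its symbol and is not analysed here. The series holds stranded mRNA sequencing of small intestine taken on postnatal day 21 from rats of the Sprague Dawley stock. The tissue of rats with cystic fibrosis (CF) gave 4 libraries and that of wild-type (WT) rats gave the other 4. The sources used here do not give the mutation carried by the CF rats, and they do not say whether each library is 1 animal. P-values therefore describe the spread between these libraries, which may be technical. RNA was taken from the full length of the intestine after mesentery was trimmed off and most luminal mucus was rinsed away.

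Neurog3 is switched on briefly in crypt progenitors and commits them to the endocrine fate in mouse intestine. Neurod1, Nkx2-2, Rfx6, Pax4, Pax6 and Isl1 act after it, and in mouse each is needed for some of the hormone-producing types. Tph1 encodes tryptophan hydroxylase, the rate-limiting enzyme of serotonin synthesis outside the nervous system. Enterochromaffin cells, the serotonin-making endocrine cells, hold most of the Tph1 of the gut, and mast cells of rodents also make serotonin.

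The CF libraries held 18.6 to 20.9 M fragments assigned to loci and the WT libraries 15.3 to 20.8 M. Levels are given as CPM, fragments relative to the scaled size of the library, except where FPKM, which also divides by transcript length, is named. Libraries are named by group and by the number from 0 to 3 that the table gives them, and these numbers have no order. CF library 0 and CF library 3 lay apart from the other 6 on the first principal component over all tested loci, at −56.9 and −43.6, against 4.12 to 28.6. The log2 fold changes of the 8 genes are given with and without these libraries. A difference in a whole-tissue library cannot tell a change in the number of endocrine cells from a change in RNA per cell.

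On build Rnor_6.0, as the table gives the spans, Neurog3 lay at 31761404 to 31763332 and Rfx6 at 32714912 to 32764101 on chromosome 20. Chromosome 3 held Neurod1 at 66403183 to 66436668, Pax6 at 95706960 to 95728624 and Nkx2-2 at 141408797 to 141411170. Tph1 lay at 102669670 to 102699442 on chromosome 1, Isl1 at 48487735 to 48501436 on chromosome 2 and Pax4 at 55735681 to 55743066 on chromosome 4. A span can take in neighbouring transcripts.

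The 4 genes whose promoters are shown are Neurog3 and Nkx2-2, which had the largest fold changes of the 8, Neurod1, a known target of NEUROG3 in mouse, and Tph1, which had the most fragments. Each line holds 250 bases before and 50 bases after the annotated start, read 5′ to 3′ on the strand of the gene, from RefSeq on build GRCr8. Capitals mark the E-box motif CAGNTG on either strand, the kind of site that NEUROG3 and NEUROD1 bind. The windows are chr20:30622283-30622582 on the plus strand for Neurog3 and, on the minus strand, chr3:155075573-155075872 for Nkx2-2, chr3:84770405-84770704 for Neurod1 and chr1:106314579-106314878 for Tph1.
Neurog3: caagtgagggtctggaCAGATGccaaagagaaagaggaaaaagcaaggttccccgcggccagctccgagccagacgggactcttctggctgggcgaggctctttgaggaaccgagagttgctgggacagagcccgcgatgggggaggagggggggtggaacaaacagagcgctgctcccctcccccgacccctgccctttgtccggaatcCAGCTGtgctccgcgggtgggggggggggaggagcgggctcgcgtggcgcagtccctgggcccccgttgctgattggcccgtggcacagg
Nkx2-2: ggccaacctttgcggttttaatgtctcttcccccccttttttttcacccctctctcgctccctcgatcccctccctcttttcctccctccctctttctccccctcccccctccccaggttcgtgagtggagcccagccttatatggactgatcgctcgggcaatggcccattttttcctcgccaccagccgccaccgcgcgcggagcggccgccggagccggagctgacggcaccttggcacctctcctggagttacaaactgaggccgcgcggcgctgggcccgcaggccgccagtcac
Neurod1: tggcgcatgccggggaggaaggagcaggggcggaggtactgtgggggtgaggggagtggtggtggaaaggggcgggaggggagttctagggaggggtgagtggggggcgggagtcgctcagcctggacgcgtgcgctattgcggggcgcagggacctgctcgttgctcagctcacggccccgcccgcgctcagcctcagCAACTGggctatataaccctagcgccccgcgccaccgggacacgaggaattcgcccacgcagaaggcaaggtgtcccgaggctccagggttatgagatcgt
Tph1: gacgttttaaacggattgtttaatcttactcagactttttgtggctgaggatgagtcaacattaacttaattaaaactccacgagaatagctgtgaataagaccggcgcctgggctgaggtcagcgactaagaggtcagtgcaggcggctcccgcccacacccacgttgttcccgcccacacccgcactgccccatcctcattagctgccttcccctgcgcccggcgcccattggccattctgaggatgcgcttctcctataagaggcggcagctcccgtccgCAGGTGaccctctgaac

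The Neurog3 window held 2 such motifs, CAGATG and CAGCTG, which began 234 and 40 bases before the start. Neurod1 held 1, read as CAACTG on the strand shown and beginning 51 bases before the start. Tph1 held 1, CAGGTG, at position 34 of the transcribed sequence, and Nkx2-2 held none. The motif is common: 50.2% of 33469 RefSeq promoter windows of 300 bases hold it. The motif CACNAG, a site of HES repressors that act on Neurog3 in mouse, was searched on both strands as well. It was found once each in the Neurod1, Nkx2-2 and Tph1 windows and not in the Neurog3 window, and 43.1% of all windows hold it. It overlapped no CAGNTG motif in these windows. The match of letters describes the sequence and shows no binding.

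Neurog3, the gene of the committed progenitor, had the largest difference between CF and WT among the 8 genes. Its level was 6.41, 2.65, 2.87 and 5.93 CPM in CF libraries 0, 1, 2 and 3, against 3.71, 1.71, 1.21 and 1.84 CPM in WT libraries 0, 1, 2 and 3. The 2 highest values were CF libraries 0 and 3, while CF libraries 1 and 2 lay below WT library 0, so the groups overlapped. These levels rest on 353 fragments in the CF libraries and 148 in the WT libraries. Neurog3 averaged 4.47 ± 1.98 CPM in CF libraries, against 2.12 ± 1.10 CPM in WT libraries (SD, n = 4 each). On the log2 scale CF exceeded WT by 1.09 (SE 0.40, 95% interval 0.19 to 1.99), which is 2.13-fold. The difference did not pass the test over all 16941 tested loci (Benjamini-Hochberg adjusted p = 0.256 by the quasi-likelihood test of edgeR). Its unadjusted p was 0.0220, and 8.58% of all tested loci had a p at or under this value.

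CF libraries 0 and 3, which lay apart, also held the highest Neurog3 values, so leaving them out had to lower the difference. With only CF libraries 1 and 2 left against WT, the log2 fold change was 0.39 and its adjusted p was 0.757 by edgeR. Leaving out single libraries moved it between 0.86, without CF library 0, and 1.502, without WT library 0. Within CF, the exact 95% Poisson intervals of library 0, 5.37 to 7.60 CPM, and library 1, 1.95 to 3.53 CPM, did not overlap. These intervals cover counting error only. CF library 0 also had the lowest summed level of 13 enterocyte markers, 9280 CPM, against 20318 to 29273 CPM in the other CF libraries and 15376 to 27197 CPM in the WT libraries. CF library 3, at 22085 CPM, was inside the WT range. The part of epithelial makeup in the Neurog3 values was not tested.

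**Figure D1:**
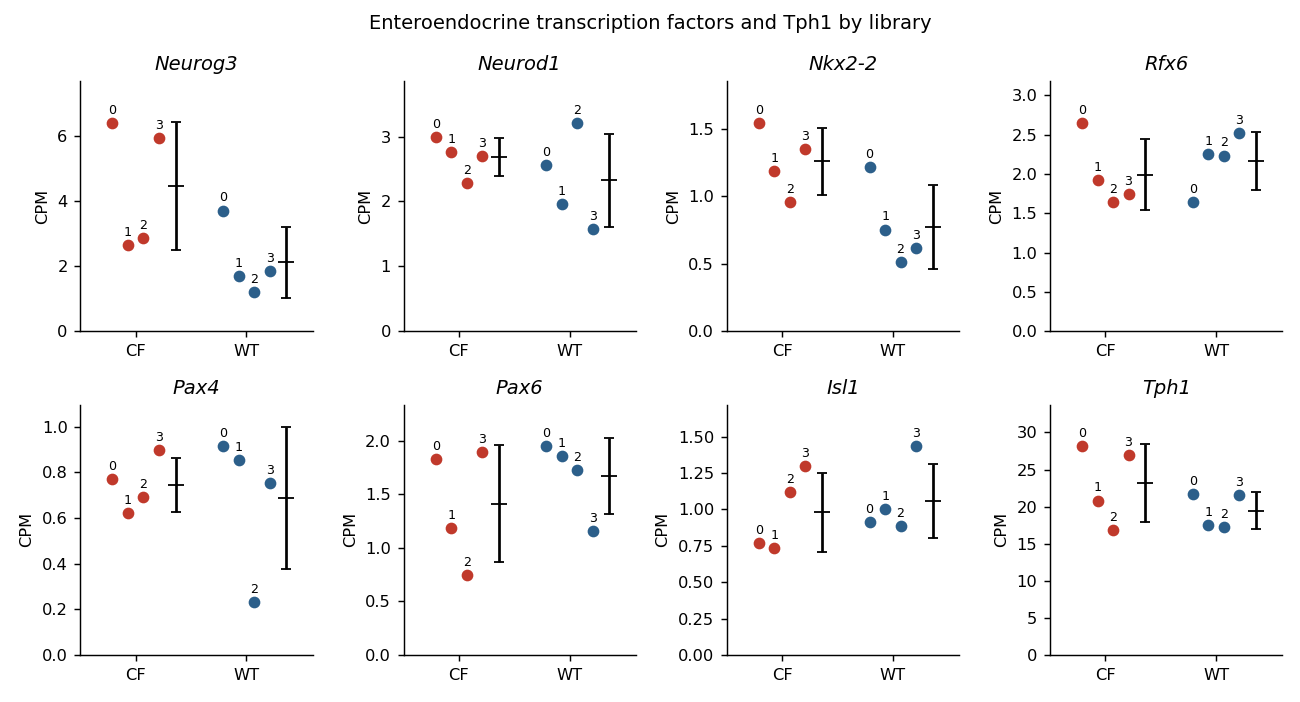
CPM of the 8 genes in each library, with CF on the left of each panel and WT on the right; numbers beside points are library numbers, and bars show the mean and SD of 4 libraries. Neurog3 was at 6.41 and 5.93 CPM in CF libraries 0 and 3, above every WT library, while CF libraries 1 and 2 were below WT library 0.

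Nkx2-2, a homeodomain factor needed for several endocrine types in mouse, was the next by size. It was at 1.54, 1.18, 0.958 and 1.35 CPM in CF libraries 0 to 3, against 1.22, 0.753, 0.512 and 0.614 CPM in WT libraries 0 to 3. WT library 0 lay inside the CF range and the other WT libraries lay below it. The mean was 1.26 ± 0.248 CPM for CF, against 0.774 ± 0.311 CPM for WT, from 98 and 55 fragments. CF over WT, the log2 fold change came to 0.71 (SE 0.33, 95% interval −0.02 to 1.43), with an adjusted p of 0.339 by edgeR. It was 0.47 without CF libraries 0 and 3 and lay between 0.54 and 1.003 when single libraries were left out.

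Tph1, the serotonin gene, had the most fragments of the 8. It was at 28.1, 20.8, 16.8 and 26.9 CPM in CF libraries 0 to 3, against 21.7, 17.5, 17.2 and 21.5 CPM in WT libraries 0 to 3. CF libraries 0 and 3 were above every WT library, and CF library 2 was below them all. The mean was 23.2 ± 5.31 CPM for CF, against 19.5 ± 2.48 CPM for WT, from 1808 and 1389 fragments. Tph1 had a log2 fold change of 0.25 (SE 0.17; 95% interval −0.13 to 0.63), with an adjusted p of 0.513 by edgeR. A change of Tph1 to over 1.55-fold or under 0.917-fold therefore lay outside the interval. Without CF libraries 0 and 3 the log2 fold change was −0.05.

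The same 3 libraries, CF libraries 0 and 3 and WT library 0, held the 3 highest values of Neurog3, of Nkx2-2 and of Tph1. Neurod1, Rfx6, Pax6, Isl1 and Pax4 each had another set of 3 highest libraries. How many of all tested loci share the first set is not given here. On the log2 CPM scale, and relative to its own 8-library mean, Neurog3 was at 1.14, −0.10, 0.01 and 1.03 in CF libraries 0 to 3, and at 0.37, −0.70, −1.16 and −0.60 in WT libraries 0 to 3. In CF libraries 0 and 3, 7 of the 8 genes lay above their own mean, against 2 and 3 in CF libraries 1 and 2. In WT library 0, 6 of the 8 did so, and in WT libraries 1, 2 and 3 there were 4, 3 and 4. The exceptions were Isl1 in CF library 0, at −0.33, and Rfx6 in CF library 3, at −0.22. The share of all tested loci above their own mean in each library is not given here, so these counts have no baseline.

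**Figure D2:**
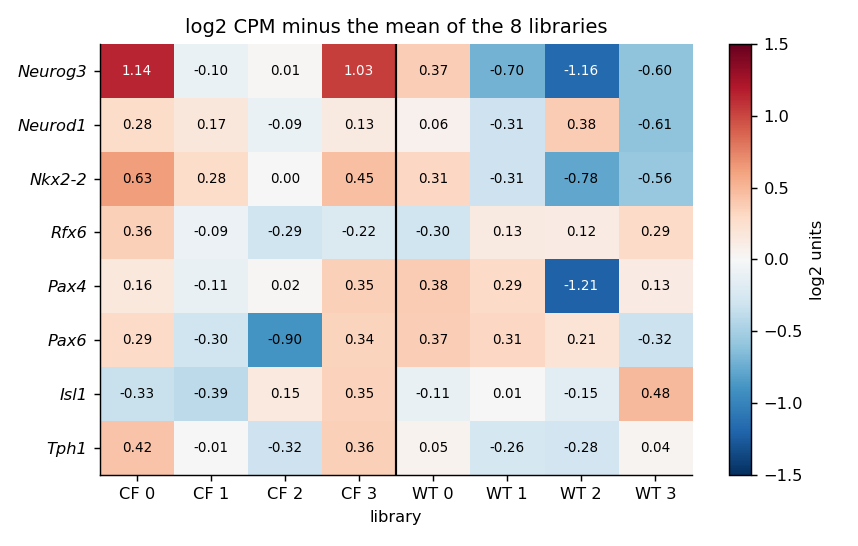
Level of each gene in each library as log2 CPM minus the mean of that gene over the 8 libraries, with CF libraries left of the line and WT libraries right of it. The first row shows Neurog3 at 1.14 and 1.03 in CF libraries 0 and 3 and at −1.16 in WT library 2.

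Neurod1, a bHLH factor switched on after Neurog3, had group means that differed by less than the SD of the WT libraries. It was at 2.99, 2.76, 2.29 and 2.69 CPM in CF libraries 0 to 3, against 2.56, 1.96, 3.21 and 1.57 CPM in WT libraries 0 to 3. The CF values lay within the WT range. Between the groups the log2 fold change came to 0.20 (SE 0.25, 95% interval −0.35 to 0.75, adjusted p = 0.746 by edgeR), and 0.11 without CF libraries 0 and 3.

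Rfx6, a winged-helix factor of endocrine progenitors and mature endocrine cells, was at 2.65, 1.92, 1.65 and 1.75 CPM in CF libraries 0 to 3. It was at 1.64, 2.26, 2.24 and 2.53 CPM in WT libraries 0 to 3. The highest value was in CF library 0 and the lowest in WT library 0. For Rfx6 the log2 fold change came to −0.12 (SE 0.24, 95% interval −0.65 to 0.42, adjusted p = 0.854 by edgeR), and −0.28 without CF libraries 0 and 3.

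Pax6, a paired-box factor needed in mouse for endocrine cells that make GIP, was at 1.83, 1.18, 0.745 and 1.90 CPM in CF libraries 0 to 3. In WT libraries 0 to 3 it was at 1.95, 1.86, 1.72 and 1.16 CPM. CF libraries 1 and 2 held 2 of the 3 lowest values. For Pax6 the log2 fold change came to −0.24 (SE 0.33, 95% interval −0.96 to 0.48, adjusted p = 0.766 by edgeR), and it was −0.80 without CF libraries 0 and 3 (adjusted p = 0.441).

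Isl1 and Pax4 had the lowest FPKM of the group. Isl1, a LIM-homeodomain factor of endocrine cells and neurons, was at 0.771, 0.733, 1.12 and 1.30 CPM in CF libraries 0 to 3, against 0.913, 1.003, 0.885 and 1.43 CPM in WT libraries 0 to 3. Its log2 fold change was −0.10 (SE 0.30, 95% interval −0.77 to 0.57, adjusted p = 0.911 by edgeR), and the sign turned when CF library 0, CF library 1 or WT library 3 was left out. Without both CF libraries 0 and 3 it was −0.18. Pax4, a paired-box factor of the serotonin and somatostatin lineages in mouse, was at 0.771, 0.621, 0.692 and 0.898 CPM in CF libraries 0 to 3. In WT libraries 0 to 3 it was at 0.913, 0.853, 0.233 and 0.751 CPM. The value of WT library 2 came from 5 fragments, for which the exact 95% Poisson interval is 1.62 to 11.7 fragments. The log2 fold change of Pax4 was 0.14 (SE 0.40, 95% interval −0.75 to 1.03, adjusted p = 0.903 by edgeR) and −0.17 without WT library 2. Pax4 was also −0.04 without CF libraries 0 and 3.

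Of the 8 genes, all of which passed the filter on low counts, 0 were called at an adjusted p of 0.05, in either direction. Over all tested loci 28 of 16941, or 0.165%, were called. By an unadjusted p under 0.05 edgeR gave 1 of the 8, Neurog3, where 15.1% of all tested loci were under it. DESeq2, which called 566 of 18265 loci with an adjusted p, or 3.1%, also called 0 of the 8. So did limma-voom, which called 0.13% of all tested loci, and edgeR without the low-count filter, which called 1.38% of the 40061 loci with a fragment. The log2 fold change was above 0 for 5 of the 8, where 49.2% of all tested loci were above 0. The median of the 8 was 0.17, and that of all tested loci was −0.0049. The CPM of the groups overlapped in each of the 8, while 8.78% of tested loci had groups that did not overlap.

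**Figure D3:**
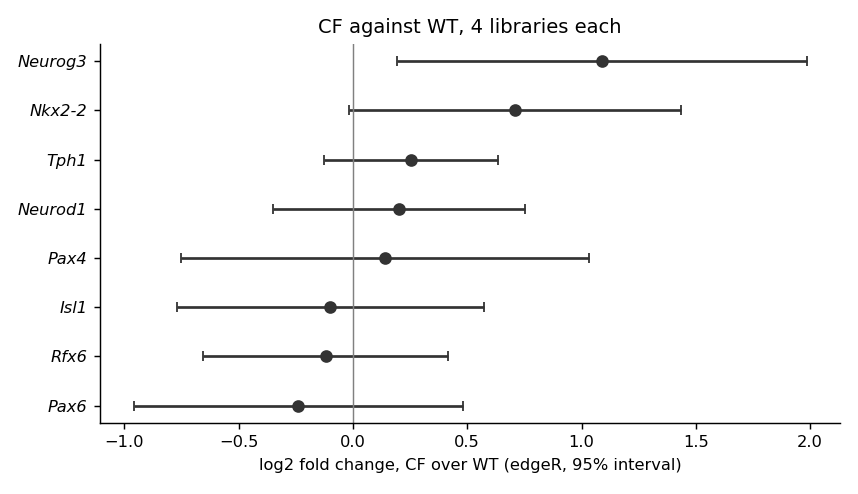
Log2 fold change, CF over WT, of the 8 genes with its 95% interval from edgeR's quasi-likelihood fit on 4 CF and 4 WT libraries. Neurog3 (0.19 to 1.99) has an interval above 0 before adjustment, and the intervals of the other 7 include 0.

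Spread between libraries, which holds both differences between samples and counting error, was widest against counting error alone for Neurog3 and Tph1. The coefficient of variation of Neurog3 was 44.3% in CF and 51.8% in WT, where counting alone would give 10.6% and 16.4%. For Tph1 it was 22.9% in CF and 12.8% in WT, where counting alone would give 4.70% and 5.37%. Pax6 varied by 38.9% in CF, against 19.0% from counting, and by 21.1% in WT, against 18.0%. Neurod1 varied by 10.9% in CF and 30.9% in WT, where counting alone gives 13.9% and 15.2%. For Isl1 the spread was close to counting error, at 27.9% in CF and 24.1% in WT against 22.9% and 23.1%.

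The levels of different genes can be compared only per length, as FPKM. Averaged over the 8 libraries, the order was Tph1 at 4.07, Neurog3 at 1.90, Neurod1 at 1.12, Rfx6 at 0.743, Nkx2-2 at 0.705, Pax6 at 0.578, Isl1 at 0.458 and Pax4 at 0.406 FPKM. This order pools CF and WT. Tph1 was above Neurog3 in 8 of 8 libraries. Neurog3 was above Neurod1, and Neurod1 above Rfx6, in 6 of 8 libraries each. Rfx6 was above Nkx2-2 in 1 of 4 CF libraries and in 3 of 4 WT libraries. Nkx2-2 was above Pax6 in 4 of 4 CF libraries and in 1 of 4 WT libraries, with means of 0.863 and 0.528 FPKM in CF and of 0.547 and 0.629 FPKM in WT. Pax6 was above Isl1 in 6 of 8 libraries, and Isl1 above Pax4 in 4 of 8. Over all 8 libraries the ranges of every pair of neighbours overlapped. The authors' FPKM and the CPM did not keep 1 ratio over the libraries. For Neurog3 the ratio of FPKM to CPM ranged from 0.430 in CF library 3 to 0.717 in WT library 2. In FPKM, Neurog3 averaged 2.56 ± 1.39 in CF libraries and 1.24 ± 0.692 in WT libraries (SD, n = 4 each).

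By a rule set for likeness of pattern, 13727 tested loci with a single gene symbol were ranked by the Pearson correlation of their log2 CPM with Neurog3 and with Tph1 over the 8 libraries. The 3 nearest to Neurog3 were Wwc1 (r = 0.99), RGD1563692 (0.98) and Tfeb (0.96). Wwc1 averaged 68.0 ± 13.6 CPM in CF libraries, against 46.5 ± 11.3 CPM in WT libraries. Its log2 fold change was 0.55, and 0.28 without CF libraries 0 and 3. Wwc1 was picked for its likeness to Neurog3, so this pattern is no separate evidence. The 3 nearest to Tph1 were Polr2c (0.97), Arl5b (0.97) and Cuedc2 (0.97). These are the highest of many correlations over few libraries and are a description only. None of the 6 was called between CF and WT, with adjusted p-values by edgeR from 0.222 for Wwc1 to 0.730 for Cuedc2.

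The rest of the serotonin pathway had no call by edgeR. Of 14 listed genes of serotonin synthesis, storage, uptake and breakdown 12 were tested, 0 were called and 2 had an unadjusted p under 0.05, while DESeq2 called 1, Gch1, as higher in CF. Over all tested loci 15.1% were under that p, and DESeq2 called 3.1%. Of the 12, 5 had log2 fold changes above 0 and 7 below, with a median of −0.13. Qdpr and Pcbd1, which recycle the cofactor of tryptophan hydroxylase, had the highest FPKM of the list. Pcbd1 averaged 35.0 ± 3.75 CPM in CF libraries, against 27.2 ± 3.70 CPM in WT libraries, with a difference of 0.37 on the log2 scale (SE 0.13, adjusted p = 0.227 by edgeR). Qdpr averaged 99.1 ± 41.5 CPM in CF libraries, against 109 ± 25.6 CPM in WT libraries (log2 fold change −0.14, SE 0.30). The genes of the next sentences were named after their values were seen. Gch1, the first enzyme of cofactor synthesis, was at 26.6, 49.0, 26.3 and 37.8 CPM in CF libraries 0 to 3, against 22.5, 14.8, 17.0 and 18.4 CPM in WT libraries 0 to 3. Its groups did not overlap in CPM but did in the authors' FPKM, at 17.0 in CF library 2 and 17.3 in WT library 0. CPM did not overlap in 2 of the 12 tested genes and in 8.78% of all tested loci. The other gene was Pts, which was lower in CF, at 6.01 to 7.28 CPM against 7.36 to 9.27 CPM in WT libraries. In the authors' FPKM the groups of Pts overlapped as well. The log2 fold change of Gch1, 0.94 (SE 0.21), had an adjusted p of 0.101 by edgeR. Ddc, which makes serotonin from the product of Tph1, was at 32.1, 85.4, 75.0 and 51.4 CPM in CF libraries 0 to 3, against 44.5, 61.6, 79.3 and 77.5 CPM in WT libraries 0 to 3. Of the CF libraries, library 0 was below every WT library, library 1 was above them all, and libraries 2 and 3 were inside the WT range. The log2 fold change of Ddc was −0.11 (SE 0.30, adjusted p = 0.897 by edgeR). The serotonin uptake carrier Slc6a4 was at 31.8, 103, 86.1 and 39.4 CPM in CF libraries 0 to 3, against 98.3, 83.9, 89.5 and 111 CPM in WT libraries 0 to 3. Its values in CF libraries 0 and 3 were below every WT library, and the other CF values were inside the WT range. The log2 fold change of Slc6a4 was −0.56 (SE 0.36, adjusted p = 0.498 by edgeR). The vesicle carrier of endocrine cells, Slc18a1, averaged 5.29 ± 0.947 CPM in CF libraries, against 4.55 ± 0.836 CPM in WT libraries. The neuronal hydroxylase gene Tph2 had 18 fragments over all 8 libraries and was not tested.

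Serotonin receptors were scarce. Of 14 receptor genes 4 were tested. By edgeR 0 were called and 1 had an unadjusted p under 0.05, and DESeq2 called that 1, Htr1b, as lower in CF. Over all tested loci 15.1% were under that p and 8.78% had CPM that did not overlap between the groups, while DESeq2 called 3.1%. Htr1b, an inhibitory receptor gene, was at 2.99, 2.43, 2.82 and 1.90 CPM in CF libraries 0 to 3, against 5.90, 5.97, 4.94 and 3.75 CPM in WT libraries 0 to 3. Its groups did not overlap, and its log2 fold change of −1.02 (SE 0.22) had an adjusted p of 0.0896 by edgeR. In the authors' FPKM its groups overlapped, and limma on log2(FPKM + 1) and log2(FPKM + 0.1) gave log2 fold changes of −0.41 and −0.81, with adjusted p-values of 0.606 and 0.618. Htr4, which raises cyclic AMP, averaged 2.13 ± 1.09 CPM in CF libraries, against 2.33 ± 0.896 CPM in WT libraries, with a log2 fold change of −0.12, and −0.63 without CF libraries 0 and 3.

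The other endocrine lists had no call by edgeR either. Of 15 tested further transcription factors of the lineage 0 were called, 5 had an unadjusted p under 0.05, and 5 log2 fold changes were above 0 and 10 below. Over all tested loci 15.1% were under that p and 49.2% had log2 fold changes above 0. Groups did not overlap in CPM for 8.78% of them. DESeq2 called 1 of the 15, Atoh1, as higher in CF, beside 3.1% of all loci. Atoh1, which starts the secretory lineage above Neurog3, had the highest FPKM of this list. It averaged 83.2 ± 7.18 CPM in CF libraries, against 57.1 ± 7.21 CPM in WT libraries, with groups that did not overlap, a log2 fold change of 0.54 (SE 0.11) and an adjusted p of 0.0809 by edgeR. Foxa1, a forkhead factor, averaged 26.4 ± 3.64 CPM in CF libraries, against 18.9 ± 3.05 CPM in WT libraries (log2 fold change 0.49, SE 0.14, adjusted p = 0.180 by edgeR), and its log2 fold change was 0.31 without CF libraries 0 and 3. Fev, a marker of serotonin-making endocrine cells in mouse and named after its value was seen, had a log2 fold change of 0.15 (SE 0.28).

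Of 18 tested genes of endocrine granules and prohormone processing 0 were called by edgeR and 4 had an unadjusted p under 0.05, with 9 log2 fold changes above 0 and 9 below and a median of 0.02. DESeq2 called 1, Ptprn, as higher in CF. Over all tested loci 15.1% were under that unadjusted p, and DESeq2 called 3.1%. The granule protein genes Chgb and Chga were at 122 ± 20.7 and 76.3 ± 5.14 CPM in CF and at 124 ± 24.8 and 78.9 ± 14.5 CPM in WT. Their log2 fold changes were −0.02 (SE 0.16) and −0.05 (SE 0.13). Of 9 tested peptide hormone genes 0 were called by edgeR and 3 had an unadjusted p under 0.05, while DESeq2 called 1, Sct, as higher in CF. The same shares of all loci, 15.1% and 3.1%, stand beside these counts. Gcg, the precursor gene of GLP-1, averaged 84.8 ± 7.24 CPM in CF libraries, against 81.3 ± 11.4 CPM in WT libraries, and Gip averaged 41.0 ± 4.65 CPM in CF libraries, against 49.1 ± 13.1 CPM in WT libraries.

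**Figure D4:**
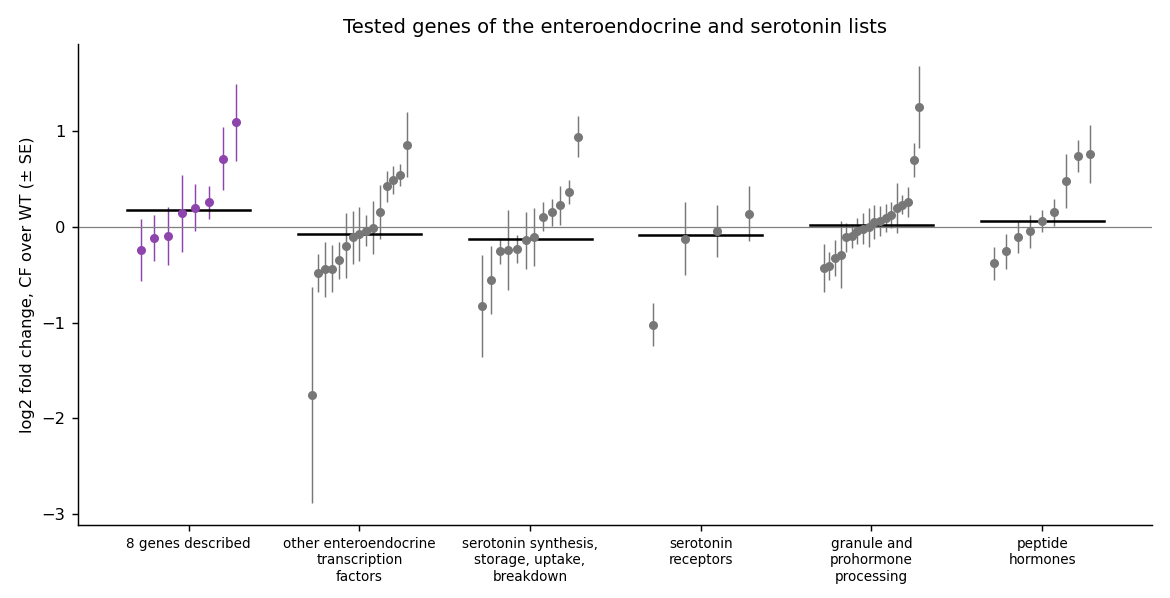
Log2 fold change, CF over WT, with its SE for each tested gene of the 8 described and of 5 lists of endocrine and serotonin genes; horizontal bars are medians. The medians lie between −0.13 for serotonin handling and 0.17 for the 8 genes, and no gene shown passed an adjusted p of 0.05 by edgeR.

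Markers of other cell types that can express these genes were read in the same libraries. Of 16 pancreatic acinar and islet markers 15 were found, and their summed level was 157 CPM in CF library 2 and 61.5 CPM in WT library 1, against 15.5 to 19.0 CPM in the other 6. The insulin genes Ins1 and Ins2 had 2 and 4 fragments over all libraries and Ptf1a had 0. The 9 mast cell markers found summed to 104 to 249 CPM in CF and 160 to 336 CPM in WT. In CF libraries 0 and 3, which had the highest Tph1, the sums were 214 and 104 CPM. Of the 7 mast cell markers tested, 1 had a log2 fold change above 0 and 6 below, with a median of −0.25. The 13 enteric neuron markers found summed to 84.9 to 116 CPM in CF and 86.2 to 127 CPM in WT. All 13 were tested, with 2 log2 fold changes above 0, 11 below and a median of −0.13, where 49.2% of all tested loci were above 0. Of the 36 tested genes of these 3 lists and the enterocyte list edgeR called 0, with 2 at an unadjusted p under 0.05, and DESeq2 called 1. That 1 was Cma1, the mast cell marker above 0, at 1.204 by edgeR (adjusted p = 0.123). Over all tested loci 15.1% were under that unadjusted p, and DESeq2 called 3.1%. The part of these cell types in the results was not tested.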

How the data were processed

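Rnor_6.0 is the genome build, and bcl2fastq, cutadapt, STAR 2.3.1z, StringTie and Cuffdiff are the tools, per the submitters' processing notes; the sources here do not give settings or order. As estimated counts the authors deposited unscaled Cuffdiff fragment numbers for each locus in each library. Of all values 5.99% were fractional and were rounded; the 64 values of the 8 genes were whole. The FPKM values per library were made and scaled by the authors with Cuffdiff, per the file headers. Another 2 columns with a value per library were left unused. Locus spans are as the table gives them. The table numbers libraries 0 to 3 and the titles 1 to 4, so within a group no library is tied to a title, and no result uses such a tie.

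Loci were kept by filterByExpr (minimum count 10, minimum total 15), scaled by TMM and compared by edgeR's robust quasi-likelihood test over 16941 loci, p-values being adjusted by Benjamini-Hochberg and called under 0.05. The fit was tested on simulated data. SE is the log2 fold change over the square root of F. Log2 CPM used a prior count of 2. The fits ran in edgeR 4.0.16, DESeq2 1.42.0 and limma 3.58.1 under R 4.3.3, and tables and plots in Python 3.11.15 with matplotlib 3.10.9 and pandas 2.3.3. The genes and lists were chosen with earlier results of these data known; 133 of 142 symbols in 10 lists were found. Named genes were all members, of each endocrine or serotonin list any called member and the 2 with the highest FPKM, and the 3 loci most like each of the 2 members with most fragments. RefSeq promoter windows on GRCr8, matched by symbol, were held for 7 of the 9 listed genes.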

Additional observations from a re-analysis of the deposited data

How the results depend on the processing

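The count of 0 called among the 8 genes was the same in every alternative run: edgeR with RLE scaling, without the low-count filter, with a replicate block, at an adjusted p of 0.1, and without each library in turn, DESeq2, limma-voom, limma on log2(FPKM + 1) and log2(FPKM + 0.1), and, added after the data were seen, edgeR without CF libraries 0 and 3. The count over all loci, 28 in the reported fit, was 553 without the filter, 566 with DESeq2, 191 at an adjusted p of 0.1, 48 without CF libraries 0 and 3, and 5 to 128 without 1 library. With the table's numbers as a replicate block it was 11. Without the filter edgeR called Atoh1, Foxa1, Gch1, Htr1b, Ptprn and Sct of the endocrine and serotonin lists, all but Foxa1 also called by DESeq2, and limma-voom called no gene of any list. Deviations of same-numbered libraries correlated at 0.07, −0.11, 0.16 and −0.01 for numbers 0 to 3. Those of libraries with unlike numbers correlated at −0.15 to 0.19. The labels do not say whether an equal number marks a pair, and these correlations cannot decide it. Log2 fold changes near 0 changed sign and the cause was not tested. Without CF libraries 0 and 3 they were −0.0428 for Pax4, −0.0473 for Tph1, 0.29 for Qdpr, −0.0226 for Polr2c and −0.0548 for Cuedc2, and Chgb was at 0.0102 without the filter. Without 1 library the ranges were −0.17 to 0.31 for Pax4, −0.26 to 0.0705 for Isl1, −0.37 to 0.0615 for Qdpr, −0.54 to 0.11 for Htr4, −0.15 to 0.0929 for Chgb, −0.15 to 0.0594 for Chga and −0.00053 to 0.16 for Gcg. Neurog3 stayed above 0 in all alternatives, from 0.39 without CF libraries 0 and 3 to 1.502 without WT library 0. On log2(FPKM + 1), which understates changes of low genes, it was 0.64. Fragment numbers limit the precision of Pax4, Isl1 and Nkx2-2, which had 48 to 98 fragments per group.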

Other observations

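Tuft cells, chemosensory epithelial cells that share secretory progenitors with endocrine cells, were included as a neighbouring cell type. All 8 tested tuft markers had log2 fold changes below 0, with a median of −0.65, and 0 passed an adjusted p of 0.05 by edgeR, while 5 had an unadjusted p under 0.05, as did 15.1% of all tested loci. DESeq2 called 3 of the 8, Avil, Pou2f3 and Trpm5, as lower in CF, and 3.1% of all loci. The summed level of the 8 was 68.2 to 82.8 CPM in CF and 97.6 to 119 CPM in WT, without overlap. Pou2f3, the master regulator of tuft cells, averaged 1.67 ± 0.751 CPM in CF libraries, against 4.91 ± 0.507 CPM in WT libraries, and the log2 difference, CF minus WT, came to −1.55 (SE 0.30; adjusted p = 0.0689). Trpm5, their taste-transduction channel, averaged 4.81 ± 1.57 CPM in CF libraries, against 10.7 ± 2.18 CPM in WT libraries (log2 fold change −1.15, SE 0.25, adjusted p = 0.0884). Ptgs1, at −0.08 (SE 0.16), and Alox5ap, at −0.01 (SE 0.21), were nearest to 0. The genes were named here after their values were seen.

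Among the hormone genes Sct, which encodes secretin, averaged 17.6 ± 2.94 CPM in CF libraries, against 10.6 ± 1.91 CPM in WT libraries, with groups that did not overlap and 0.74 as the log2 difference (SE 0.17; adjusted p = 0.101 by edgeR). Groups without overlap in CPM were seen in 8.78% of all tested loci. Ptprn, a granule membrane protein gene, differed by 0.70 on the log2 scale (SE 0.18, adjusted p = 0.134 by edgeR), with groups that overlapped in CPM. Both Sct and Ptprn were called by DESeq2, as were 3.1% of all loci. Both were named after their values were seen.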
